A study of Mus musculus with 12 samples.

Results

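The genes described here are 50 genes of DNA replication and S phase, taken by their symbols from the 55335 genes of each deposited table and covering the path from licensing of origins to repair at the fork. They fall into 8 roles: origin licensing with 10 genes, helicase activation with 6, polymerases and primase with 8, the sliding clamp and its loader with 5, single-strand binding and flap joining with 4, nucleotide supply with 5, chromatin duplication with 5, and repair and fork protection with 7. Each symbol matched a single gene, and all 50 passed the filter on low counts. Exo1 alone had a library with under 10 counts.

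A cell copies its DNA from origins at which the MCM helicase is loaded before S phase and switched on within it. Polymerases, held to the template by a sliding clamp, then extend the new strands while other enzymes supply nucleotides, join fragments and restore chromatin and its methylation. Many of the genes involved are transcribed together under E2F factors as cells enter the cycle, and bone marrow precursors divide as they become dendritic cells in culture with GM-CSF.

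The series measured RNA in bone marrow-derived dendritic cells (BMDCs) with and without CTCF, the zinc finger protein that anchors chromatin loops, before and after lipopolysaccharide (LPS). Each of 4 groups had 3 libraries, which the study describes as biological replicates. The comparisons ask how loss of CTCF alters expression at rest and after LPS, and how each genotype responds to LPS.

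Donors were young adult C57BL/6 mice of both sexes carrying CreER at Rosa26, a recombinase that is present in every cell type and is active in the presence of 4-hydroxytamoxifen (4-OHT). WT cells came from CreER littermates with intact Ctcf, and KO cells from CreER mice with both Ctcf alleles flanked by loxP sites. Marrow was cultured with GM-CSF for 6 days, with 4-OHT on the opening day of culture for the deletion, and CD11c+ cells were taken with microbeads. The study's text can be read as saying that WT cultures were not given the agent, but does not settle it, and if they were not, the effects of the deletion and of the agent cannot be told apart. WTL and KOL are WT and KO cells given LPS of E. coli K12 at 100 ng/ml for 3 h. Deletion was induced in whole marrow, so it covers the precursors as well as the selected cells, and in these bulk samples fewer cells of a type and less RNA per cell cannot be told apart.

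Libraries held between 12769773 and 16586334 expected counts. Values per library below are counts divided by factors of the trimmed mean of M-values (TMM) and brought to the mean library size, called normalized counts. Differences are log2 fold changes with their standard error (SE) from the quasi-likelihood test of edgeR on all 12 libraries, and a gene is said to rise or fall where its Benjamini-Hochberg adjusted p over the 14008 genes tested was under 0.05. Levels of different genes are set side by side only in TPM, in which counts are divided by transcript length and brought to the same sum in every library.

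Ctcf itself had normalized counts of 1051, 987 and 975 in WT, 886, 817 and 745 in WTL, 570, 562 and 516 in KO and 563, 530 and 526 in KOL. Every KO and KOL library lay below every WT and WTL library. The difference was −0.87 ± 0.08 between KO and WT and −0.59 ± 0.08 between KOL and WTL (adjusted p = 3.9e-07 and 2.4e-05, quasi-likelihood test of edgeR, Benjamini-Hochberg adjusted). These counts cover the whole gene, so transcripts lacking the deleted part are included. Ctcf was also lower in WTL than in WT, at −0.30 ± 0.08, while KOL and KO overlapped. The difference between the LPS changes of the genotypes, 0.28 ± 0.11, missed the threshold. Over the alternative fits the LPS change of Ctcf ranged from −0.87 to −0.24 in WT cells and from −0.65 to −0.00 in KO cells.

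The choice of scaling bears on the LPS comparisons. With TMM the median log2 fold change of all genes tested lay between −0.03 and −0.01. With total counts alone it moved to −0.12 in KO against WT, −0.53 in WTL against WT, −0.40 in KOL against KO and 0.12 in the interaction, and it was −0.00 in KOL against WTL. Changes below are relative to the TMM median. Genes called as rising and falling in WTL against WT numbered 4209 and 4224 with TMM, against 2031 and 8413 with total counts and 1710 and 7544 with limma on log2(TPM + 1). In KOL against KO the 3 splits were 4704 and 4752, 2873 and 7317, and 2245 and 6935. For KO against WT they were 3110 and 3131, 2342 and 4107, and 1807 and 3151, and for the interaction 1218 and 1225, 1864 and 692, and 949 and 603.

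Before the members, the make-up of the samples was checked with marker lists. Cd74 led the dendritic cell list at 5797 TPM on average and Lyz2 the macrophage and monocyte list at 26747 TPM. All 10 genes of each list passed the filter. The summed TPM of the macrophage and monocyte list was 25152, 26558 and 27222 in WT, 18980, 14236 and 14282 in WTL, 47489, 45935 and 48426 in KO and 18523, 26126 and 20336 in KOL, so every KO library lay above every other. Lyz2 made up most of that sum, with mean TPM of 25371 in WT and 45976 in KO, while the median log2 fold change of the list in KO against WT was −0.18. The summed TPM of the dendritic cell list was 12409, 12822 and 12288 in WT, 11646, 13423 and 15450 in WTL, 8797, 9115 and 8892 in KO and 16442, 12059 and 13341 in KOL, so every KO library lay below every other. Of these genes, 5 macrophage and monocyte genes rose and 5 fell in KO against WT, and 1 dendritic cell gene rose and 4 fell. Of all genes tested, 22.2% rose and 22.4% fell in that comparison. The defining genes of other lineages were low: each of 6 erythroid genes had at most 3 counts in every library, and no B cell gene passed the filter. A single gene passed in each of 3 further lists, and these genes moved with the groups. Gata2 of the mast cell and basophil list had normalized counts of 11.0, 10.9 and 12.1 in WT, 8.09, 6.5 and 13.8 in WTL, 83.4, 80.6 and 78.7 in KO and 158, 92.4 and 105 in KOL. It rose by 2.82 ± 0.26 in KO against WT and 3.61 ± 0.28 in KOL against WTL, and Cd8a of the T and NK cell list fell in both, from 13.0 to 16.5 normalized counts in WT and 19.5 to 26.6 in WTL to 0.926 to 4.49 in KO and 1.17 to 5.38 in KOL. Pdgfra of the stromal list rose with LPS in both genotypes, with 5.51 to 6.71 normalized counts in WT, 16.2 to 39.0 in WTL, 0.96 to 5.38 in KO and 14.9 to 39.8 in KOL. The plasmacytoid list, led by Bst2 at 396 TPM, held 3 of 5 genes past the filter. All 3 rose in WTL against WT, 2 of them with total counts alone, beside 30.0% and 14.5% of all genes. Siglech, its defining gene, did not exceed 4.25 normalized counts in any library.

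Neutrophil genes moved with genotype and with LPS. Ngp, a granule protein, had normalized counts of 77.2, 61.2 and 88.2 in WT, 135, 127 and 182 in WTL, 3.59, 2.88 and 4.63 in KO and 8.6, 10.5 and 9.61 in KOL. KO and KOL libraries all lay below WT and WTL libraries. The summed TPM of the neutrophil list, led by S100a8 at 223 TPM, was 480, 447 and 462 in WT, 504, 393 and 485 in WTL, 257, 274 and 241 in KO and 331, 384 and 375 in KOL. Of the 7 genes tested, 6 fell in KO against WT while 1 rose, beside 22.4% and 22.2% of all genes. In KOL against WTL 4 fell and none rose, beside 23.3% and 21.4% of all genes. With LPS, 4 rose and 1 fell in WT cells and 5 rose and 1 fell in KO cells, against 1 and 2 in WT cells and 3 and 1 in KO cells with total counts alone, where S100a8 turned from 0.49 to −0.02 in WT cells. Of all genes, 30.0% rose and 30.2% fell in WT cells, and 33.6% and 33.9% in KO cells. With total counts alone these shares were 14.5% and 60.1% in WT cells and 20.5% and 52.2% in KO cells. Progenitor genes, led by Kit at 2.53 TPM, summed to means of 8.87 TPM in WT, 9.81 in WTL, 5.89 in KO and 12.3 in KOL, and 2 of the 5 tested rose and 2 fell in KO against WT. Of these 5, 3 rose and 1 fell in KOL against WTL and in WTL against WT, and all 5 rose in KOL against KO, with a median of 1.48. The counts with total counts alone were 1 rise and 1 fall in WTL against WT and 4 rises in KOL against KO. The shares of all genes in each comparison are those given for the neutrophil list. Several marker lists thus differed between groups, and their part in the results below was not tested.

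WTL replicate 2 and KOL replicate 2 stood apart within their groups. The chi-square per degree of freedom between libraries was 86.04 and 80.35 for pairs with WTL replicate 2 and 31.11 for the other WTL pair, 29.8 and 31.38 for pairs with KOL replicate 2 and 8.78 for the other KOL pair, and at most 4.75 in WT and KO. In WTL replicate 2, ribosomal RNA genes took 5.165% of counts against at most 1.185% elsewhere, and the collagen gene Col1a1 reached normalized counts of 8.09, 48.7 and 7.44 in WTL. Where a call given below was lost without either library, its value without it is given. Without KOL replicate 2 members also gained calls, given here or, for Dut and for Brca2 in KO against WT, below. Mcm10 fell in KOL against KO, at −0.47, and Pole2 and Brca2 fell in KOL against WTL, at −0.98 and −0.55. In the interaction Cdt1, Rpa2 and Slbp were higher, at 0.63, 0.52 and 0.4. Pole, Dnmt1 and Chaf1a were lower there, at −0.78, −0.42 and −0.39.

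Most members were lower after loss of CTCF and lower after LPS. In KO against WT, 36 of 50 members fell (72.0%) and 3 rose (6.00%), beside 22.4% and 22.2% of all genes tested. Their median log2 fold change was −0.50, beside −0.01 for all genes. In WTL against WT, 38 members fell and 3 rose, beside 30.2% and 30.0% of all genes, with a median of −0.51 beside −0.02. KOL against WTL gave 31 falls and 5 rises, beside 23.3% and 21.4% of all genes, with a median of −0.52 beside −0.03. In KOL against KO, 32 fell and 3 rose, beside 33.9% and 33.6%, and the median was −0.58 beside −0.02. By share of falls, the contrast with all genes was narrower for LPS under the other scalings. The members' median minus that of all genes was −0.49 in WTL against WT and −0.55 in KOL against KO with TMM. With total counts alone it was the same by construction, since a change of scaling shifts all genes of a comparison alike. With limma on log2(TPM + 1), which changes unit and model, it was −0.47 and −0.44. Falls in WTL against WT numbered 47 beside 60.1% of all genes with total counts alone and 46 beside 56.2% with limma on log2(TPM + 1), and in KOL against KO 46 fell beside 52.2% and 44 beside 51.6%. For KO against WT these counts were 42 beside 29.3% and 32 beside 23.5%, and for KOL against WTL 30 beside 20.7% and 29 beside 19.5%. The 5 comparisons share samples and are not independent.

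WT had the highest group mean for 42 of 50 members and KOL the lowest for 40. The shares of all genes with this order, or with falls in all 4 comparisons, were not computed. As the comparisons share groups, such counts cannot be read as particular to the members. The members that fell in all 4 comparisons numbered 21: Mcm4, Mcm5, Mcm7, Cdc45, Gins1, Pola1, Prim1, Prim2, Pole, Rfc4, Lig1, Rrm1, Rrm2, Uhrf1, Dnmt1, Chaf1a, Rad51ap1, Exo1, Blm, Clspn and Tipin. Of these, Pole, Chaf1a, Exo1, Blm, Dnmt1 and Clspn lost a call with limma or without some libraries, as given with each gene below. Gins2, Fen1 and Dut passed the threshold in no comparison with TMM scaling on all 12 libraries, and each passed it in at least 2 comparisons with total counts alone and with limma, as given with each gene below.

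**Figure D1:**
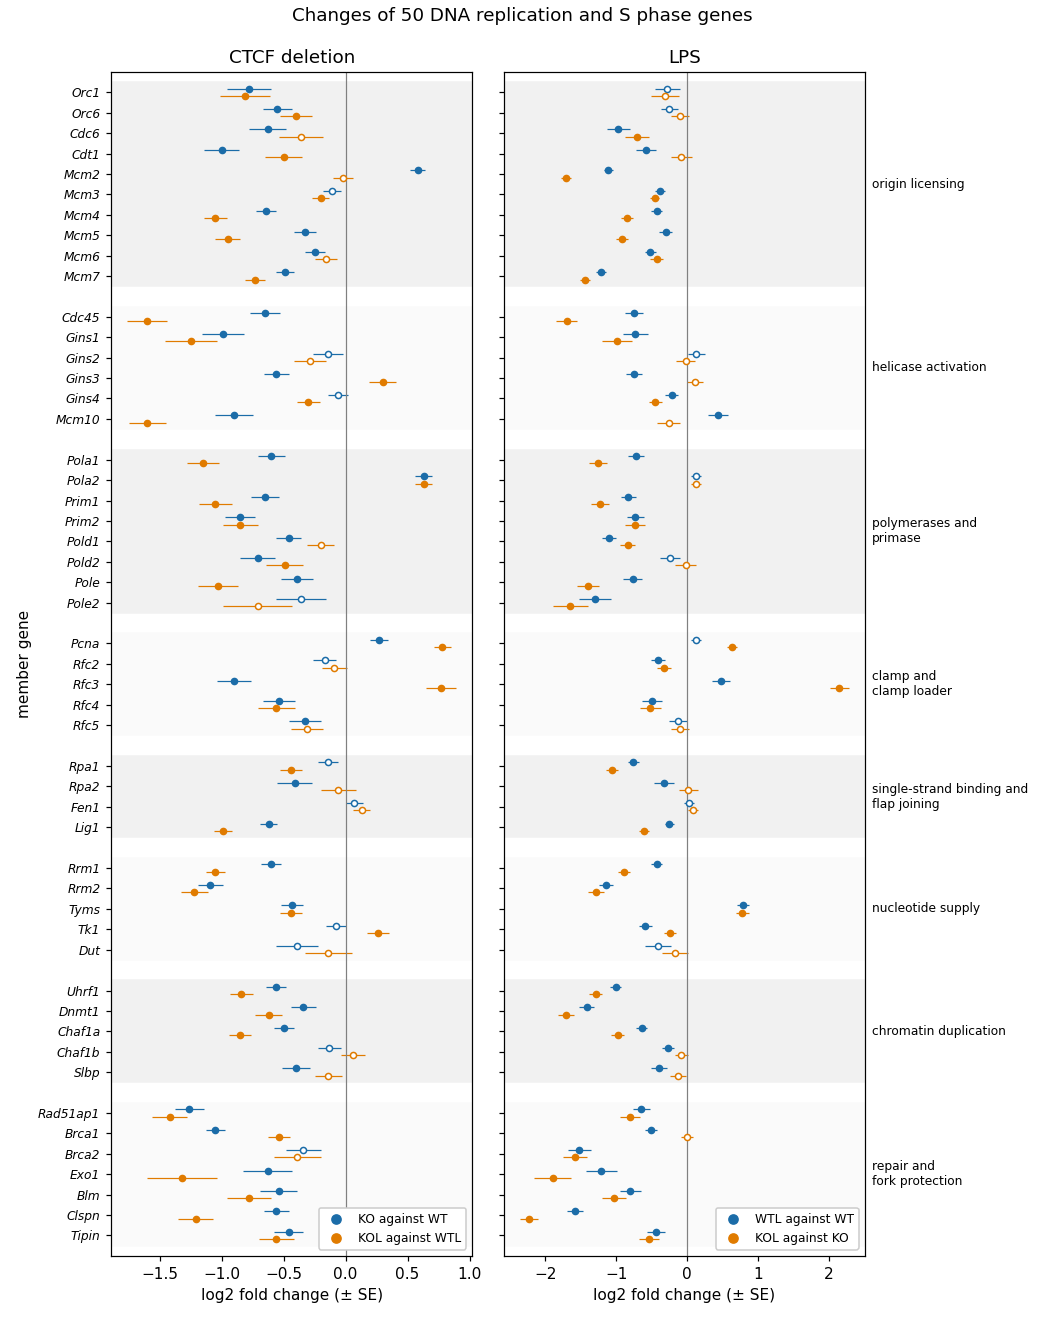
Log2 fold changes (horizontal axis, point and SE) of the 50 members by role, for loss of CTCF on the left and LPS on the right, with filled points for adjusted p under 0.05. Most points lie left of 0; Mcm2, Pola2, Pcna and, short of the threshold, Fen1 lie right of it in KO against WT, and the rises of Mcm10 and Rfc3 in WTL against WT turn to −0.08 and −0.03 with total counts alone.

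Origin licensing genes fell in KO, apart from Mcm2, which rose, and Mcm3, which missed the threshold. ORC marks origins, Cdc6 and Cdt1 bring the helicase to it, and Mcm2 to Mcm7 form the helicase ring. In KO against WT, 8 of the 10 genes fell and 1 rose, beside 22.4% and 22.2% of all genes. In WTL against WT 8 fell and none rose, beside 30.2% and 30.0%. Orc1 and Orc6 were the 2 genes without a call in WTL, at −0.28 ± 0.18 and −0.25 ± 0.12. These values passed the threshold both with total counts alone and with limma on log2(TPM + 1), at −0.78 and −0.77 in either fit. That of Orc6 also passed without WT replicate 2 or 3 or KO replicate 3, at −0.35, −0.37 and −0.26. In KOL against WTL both fell, at −0.81 ± 0.20 and −0.40 ± 0.13. With limma on log2(TPM + 1) that of Orc1 was −0.41 and missed the threshold, and that of Orc6 missed it without WTL replicate 2 or KOL replicate 1 or 2, at −0.34, −0.39 and −0.34.

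Cdt1 had the largest change of the role in KO. Cdt1 had normalized counts of 221, 248 and 213 in WT, 135, 160 and 162 in WTL, 127, 95.1 and 119 in KO and 110, 86.6 and 127 in KOL. All KO libraries lay below all WT libraries, a difference of −1.0 ± 0.14, and all KOL libraries lay below all WTL libraries, at −0.50 ± 0.15. Without WTL replicate 2 the latter was −0.46 and missed the threshold. KO and KOL overlapped, at −0.08 ± 0.15, short of the threshold. With total counts alone and with limma on log2(TPM + 1) this was a fall past it, at −0.45 and −0.43.

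Mcm2 rose in KO, against the direction of most of its role. It had normalized counts of 415, 428 and 433 in WT, 194, 203 and 194 in WTL, 664, 599 and 645 in KO and 187, 195 and 200 in KOL. The KO libraries were the highest of all 12, and WTL and KOL overlapped at the lowest level. The rise in KO was 0.58 ± 0.06 (adjusted p = 4.9e-06, quasi-likelihood test of edgeR, Benjamini-Hochberg adjusted), while with LPS Mcm2 fell, at −1.11 ± 0.07 in WT cells and −1.71 ± 0.07 in KO cells.

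Its partners in the ring behaved otherwise. Mcm7 had normalized counts of 799, 870 and 863 in WT, 349, 366 and 380 in WTL, 599, 581 and 620 in KO and 233, 212 and 216 in KOL, which fell without overlap from WT to KO to WTL to KOL. It had the largest LPS change of the role in WT cells, −1.21 ± 0.07. Mcm5 had normalized counts of 818, 913 and 940 in WT, 765, 730 and 671 in WTL, 724, 713 and 685 in KO and 342, 433 and 348 in KOL. WTL and KO libraries of Mcm5 lay at a like level, all WT libraries lay above them, and all KOL libraries lay below. Its change in KO was −0.33 ± 0.09 without LPS and −0.95 ± 0.10 with it.

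Mcm3 was the most abundant licensing gene in TPM averaged over the 12 libraries, though Mcm7 was higher in WT at 43.9 TPM, with Mcm3 at a mean TPM ± SD (n = 3) of 40.4 ± 3.83 in WT, 26.3 ± 4.84 in WTL, 32.2 ± 1.76 in KO and 23.4 ± 5.69 in KOL. Its normalized counts were 921, 1053 and 956 in WT, 704, 762 and 791 in WTL, 902, 897 and 916 in KO and 657, 636 and 674 in KOL. KO libraries lay just below WT libraries, a difference of −0.11 ± 0.07 that missed the threshold, though with total counts alone it passed, at −0.22. The difference between KOL and WTL, −0.20 ± 0.07, missed the threshold without WTL replicate 2 or 3 or without any KOL replicate, at −0.22 to −0.16, and with total counts alone or limma, at −0.17 and −0.18. Mcm4 and Mcm6 fell in KO at −0.64 ± 0.08 and −0.25 ± 0.08, Orc1 at −0.78 ± 0.18, Orc6 at −0.55 ± 0.12 and Cdc6 at −0.63 ± 0.15. Cdc6 in KOL against KO went from −0.71 ± 0.17 to −0.09 with limma and missed the threshold there. The fall of Mcm6 missed the threshold without WT replicate 1 or 2 or KO replicate 2, at −0.26 each, and without KO replicate 3, at −0.19.

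Helicase activation adds Cdc45 and the GINS complex, of Gins1 to Gins4, to the loaded ring, with Mcm10 as a further factor. In KO against WT 4 of the 6 genes fell and none rose, beside 22.4% and 22.2% of all genes. In KOL against WTL 4 fell and 1 rose, beside 23.3% and 21.4%. Cdc45 had normalized counts of 215, 262 and 261 in WT, 147, 134 and 157 in WTL, 151, 156 and 165 in KO and 43, 62 and 40.6 in KOL. The KOL libraries, at 40.6 to 62.0, lay under every library of the other groups, while WTL and KO overlapped. The difference between KOL and WTL was −1.60 ± 0.16 and that between KO and WT −0.65 ± 0.12.

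Gins1 had the largest change of the role in KO, −0.99 ± 0.17. Gins1 had normalized counts of 93.7, 103 and 104 in WT, 44.5, 69.3 and 65.9 in WTL, 52.9, 49.9 and 48.2 in KO and 22.6, 21.1 and 32 in KOL. The groups did not overlap in any of the 4 comparisons, and KOL was lowest. Gins3 took another course, with normalized counts of 208, 198 and 193 in WT, 115, 126 and 116 in WTL, 135, 132 and 139 in KO and 170, 136 and 133 in KOL. All KO, WTL and KOL libraries lay below all WT libraries, and every KOL library lay above every WTL library. That rise, 0.30 ± 0.11, missed the threshold without any WTL replicate or without KOL replicate 1, at 0.18 to 0.34 in those fits, and with DESeq2, at 0.30, or limma, at 0.24.

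Gins2, most abundant of the role in TPM averaged over the 12 libraries but below Gins4 in WT and KO (23.3 and 20.9 TPM), with a mean TPM ± SD of 22 ± 2.83 in WT, 20.3 ± 1.69 in WTL, 18.9 ± 1.66 in KO and 11.4 ± 1.15 in KOL, had normalized counts of 583, 609 and 574 in WT, 515, 661 and 747 in WTL, 526, 553 and 519 in KO and 609, 439 and 527 in KOL. All KO libraries lay below all WT libraries, the other 3 comparisons overlapped, and no difference passed the threshold with TMM scaling on all 12 libraries. With limma on log2(TPM + 1), however, Gins2 fell, at −0.78 in KOL against WTL and −0.68 in KOL against KO, with an interaction of −0.57, and with total counts alone at −0.39 in KOL against KO and −0.38 in WTL against WT. KOL against WTL, at −0.29, also passed with no filter on low counts, at −0.28, and without WTL replicate 1 or KOL replicate 1, at −0.42 and −0.41. Without WTL replicate 1, WTL against WT passed in the other direction, at 0.26. Its effective length, by which counts are divided in TPM, was 1595, 2029 and 2756 bases in WTL, 3332, 2381 and 3333 in KOL and 2346 to 2850 in WT and KO. Gins2 shares sequence positions with Gm20388 and Gse1 on the other strand. Gins4 fell in KOL against KO, at −0.45 ± 0.09, and gave −0.06 ± 0.08 in KO against WT, short of the threshold. Its falls of −0.22 ± 0.09 in WTL against WT and −0.30 ± 0.09 in KOL against WTL were lost in some fits, the former with DESeq2, at −0.22, and without WTL replicate 1 or 2 or any KO replicate, at −0.22 to −0.16, and the latter without WTL replicate 3 or KOL replicate 1, at −0.20 and −0.28.

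Mcm10 had normalized counts of 348, 313 and 334 in WT, 480, 481 and 388 in WTL, 169, 162 and 203 in KO and 145, 190 and 112 in KOL. WTL libraries were the highest, and all KO and KOL libraries lay below all WT libraries. The difference between KOL and WTL was −1.60 ± 0.15. The rise in WTL against WT, 0.44 ± 0.14, was −0.08 with total counts alone and 0.02 with limma on log2(TPM + 1), and it missed the threshold without WT replicate 1, 2 or 3 or WTL replicate 2, at 0.39, 0.32, 0.37 and 0.38.

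Polymerases and primase start and extend the new strands: Pola1 and Pola2 belong to polymerase alpha, Prim1 and Prim2 to its primase, Pold1 and Pold2 to polymerase delta, and Pole and Pole2 to polymerase epsilon. In KO against WT, 6 of the 8 genes fell and 1 rose, beside 22.4% and 22.2% of all genes. In KOL against KO 6 fell and none rose, beside 33.9% and 33.6%. Pola2 was the one that rose. It had normalized counts of 362, 399 and 371 in WT, 414, 416 and 399 in WTL, 591, 611 and 547 in KO and 652, 627 and 620 in KOL. KO and KOL libraries all lay above WT and WTL libraries, and the differences were 0.63 ± 0.07 and 0.63 ± 0.07. LPS values of 0.12 ± 0.07 and 0.12 ± 0.07 missed the threshold. Both became falls past it with total counts alone, at −0.39 and −0.25, and with limma on log2(TPM + 1), at −0.43 and −0.31.

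Its partner Pola1 moved the other way, at −0.60 ± 0.11 in KO against WT and −1.15 ± 0.13 in KOL against WTL. Prim2 had the largest change of the role in KO, −0.85 ± 0.12. It had normalized counts of 231, 245 and 223 in WT, 146, 135 and 141 in WTL, 125, 143 and 120 in KO and 62.4, 95.9 and 75.8 in KOL. KO and WTL lay at like levels below WT, and KOL lay below both. Pole2 had the largest LPS change in WT cells, −1.30 ± 0.23, from low counts of 76.2, 54.5 and 66.6 in WT, 32.4, 22.7 and 25.5 in WTL, 47.6, 53.8 and 51.9 in KO and 16.1, 22.2 and 10.7 in KOL. WTL libraries lay below WT and KO libraries, and KOL libraries were lowest.

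Prim1 also fell in KO against WT, with −0.65 ± 0.11, Pold1 with −0.46 ± 0.10, Pold2 with −0.71 ± 0.14 and Pole with −0.39 ± 0.13. The fall of Pole missed the threshold without WT replicate 1 or 3 or any KO replicate, at −0.43 to −0.37, and with limma on log2(TPM + 1), at −0.27, and that of Pold2 missed it with limma, at −0.43. Pold2 gave −0.24 ± 0.14 in WTL against WT and −0.02 ± 0.15 in KOL against KO, both short of the threshold. Both passed it with total counts alone, at −0.75 and −0.39, and with limma, at −0.77 and −0.81. The former also passed without WT replicate 1, at −0.43. The fall of Pold2 in KOL against WTL, −0.49 ± 0.15, was lost with limma, at −0.47, and without WTL replicate 3 or KOL replicate 3, at −0.38 and −0.43. The fall of Pold1 in KOL against KO, −0.84 ± 0.11, was −0.34 and short of the threshold with limma. The level of Pold2, 13.3 TPM, was above that of Pola1, at 3.43 TPM, averaged over the 12 libraries.

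Clamp and loader genes moved both ways, with 1 rise and 3 falls in KO against WT and 2 rises and 1 fall in KOL against WTL. Pcna forms the ring that holds polymerases on DNA, and Rfc2 to Rfc5 are subunits that open and load it. Pcna had normalized counts of 3147, 3079 and 3094 in WT, 3590, 3228 and 3316 in WTL, 3696, 3762 and 3817 in KO and 5729, 5442 and 6236 in KOL. No groups overlapped, and levels went up from WT to WTL to KO to KOL. The difference was 0.27 ± 0.07 in KO against WT, 0.78 ± 0.07 in KOL against WTL and 0.63 ± 0.07 in KOL against KO.

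Per length Pcna was the most abundant of all 50 members, with a mean TPM ± SD (n = 3) of 236 ± 8.4 in WT, 178 ± 17.3 in WTL, 268 ± 4.58 in KO and 302 ± 20.8 in KOL. Its rise in KO against WT missed the threshold with total counts alone, at 0.17, and with limma, at 0.18, as did its rise in KOL against KO with limma, at 0.17. WTL against WT, at 0.12 ± 0.07, missed the threshold. It became a fall past it with total counts alone, at −0.39, and with limma on log2(TPM + 1), at −0.41. Counts of Pcna were not whole in any library, and its processed pseudogene Pcna-ps2 held 600.21 expected counts over all libraries.

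Rfc3 differed in opposite directions without and with LPS. It had normalized counts of 182, 171 and 185 in WT, 237, 237 and 275 in WTL, 115, 73 and 100 in KO and 431, 388 and 462 in KOL. Without LPS all KO libraries lay below all WT libraries, and with LPS all KOL libraries lay above all WTL libraries and were the highest of all. The differences were −0.90 ± 0.14 in KO against WT and 0.77 ± 0.12 in KOL against WTL. LPS raised Rfc3 by 2.15 ± 0.13 in KO cells (adjusted p = 3.2e-09, quasi-likelihood test of edgeR, Benjamini-Hochberg adjusted) and by 0.48 ± 0.13 in WT cells, the latter −0.03 with total counts alone and 0.09, short of the threshold, with limma.

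Rfc4 fell in each of the 4 comparisons. Its normalized counts were 129, 173 and 162 in WT, 101, 118 and 108 in WTL, 118, 91.2 and 109 in KO and 76.3, 73.7 and 72.6 in KOL, with WT highest and KOL lowest. The difference was −0.54 ± 0.13 in KO against WT and −0.50 ± 0.14 in WTL against WT. Rfc5 was called in KO against WT alone with TMM scaling on all 12 libraries, at −0.33 ± 0.13. This was lost without WT replicate 1 or 2, WTL replicate 2 or 3 or any KO replicate, at −0.39 to −0.30, and with DESeq2, at −0.35. With total counts alone and with limma Rfc5 fell in WTL against WT, at −0.64 and −0.45, and in KOL against KO, at −0.47 and −0.67. In KOL against WTL it fell with limma, at −0.69, with no filter on low counts, at −0.29, and without KOL replicate 1 or 3, at −0.40 each. Rfc2 fell with LPS, at −0.41 ± 0.10 in WT cells and −0.33 ± 0.10 in KO cells.

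Single-strand binding and flap joining involve Rpa1 and Rpa2, which coat open DNA, the nuclease Fen1 and the ligase Lig1. Lig1 had the largest change of the role in KO, with normalized counts of 441, 450 and 430 in WT, 364, 375 and 371 in WTL, 293, 280 and 283 in KO and 195, 180 and 185 in KOL. WT libraries lay above WTL, WTL above KO, and KO above KOL, with no overlap. The falls of Lig1 were −0.62 ± 0.07 in KO against WT and −0.99 ± 0.07 in KOL against WTL.

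Rpa1 had normalized counts of 862, 829 and 855 in WT, 475, 521 and 510 in WTL, 773, 767 and 766 in KO and 388, 312 and 406 in KOL, and WTL and KOL libraries lay below all libraries without LPS. With LPS it fell, at −0.76 ± 0.08 in WT cells, and KOL against WTL gave a fall of −0.44 ± 0.09. KO libraries lay just below WT libraries, at −0.14 ± 0.08, short of the threshold, which was passed with total counts alone, at −0.25. Fen1, the most abundant of the role in TPM averaged over the 12 libraries but below Rpa1 in WT (30.2 and 35.0 TPM), had normalized counts of 587, 628 and 646 in WT, 597, 623 and 682 in WTL, 686, 626 and 644 in KO and 699, 659 and 723 in KOL. All 4 groups overlapped in the 4 comparisons, and no change passed the threshold with TMM scaling. Fen1 did pass it in WTL against WT and in KOL against KO with total counts alone, at −0.48 and −0.28, and with limma on log2(TPM + 1), at −0.49 and −0.35. Rpa2 fell in KO against WT, at −0.41 ± 0.14, which was lost without WT replicate 2 or any KO replicate, at −0.44 to −0.37. Its fall in WTL against WT, −0.33 ± 0.14, was lost without WT replicate 2, WTL replicate 1 or 2 or any KO replicate, at −0.39 to −0.23, and with DESeq2, at −0.34.

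Nucleotide supply rests on Rrm1 and Rrm2, the subunits of ribonucleotide reductase, on thymidylate synthase Tyms and thymidine kinase Tk1, and on Dut, which removes dUTP. In KO against WT 3 of these 5 genes fell and none rose, beside 22.4% and 22.2% of all genes. Rrm2 had the largest changes, with normalized counts of 989, 987 and 909 in WT, 460, 417 and 423 in WTL, 452, 457 and 448 in KO and 225, 153 and 177 in KOL. WT libraries were highest, WTL and KO libraries lay between 417 and 460, and KOL libraries were lowest. The difference was −1.09 ± 0.10 in KO against WT and −1.15 ± 0.10 in WTL against WT.

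Tyms rose with LPS in both genotypes. Its normalized counts were 331, 346 and 323 in WT, 620, 558 and 556 in WTL, 260, 235 and 245 in KO and 374, 482 and 419 in KOL. WTL libraries were the highest and KO libraries the lowest, with no overlap in any comparison. LPS raised Tyms by 0.79 ± 0.09 in WT cells and 0.78 ± 0.09 in KO cells, and with loss of CTCF it fell, at −0.43 ± 0.09 without LPS and −0.44 ± 0.09 with it. Tk1, the most abundant of the role in TPM averaged over the 12 libraries but below Tyms in WTL (47.8 TPM), with a mean TPM ± SD of 64.3 ± 0.83 in WT, 27.9 ± 1.69 in WTL, 58.1 ± 1.68 in KO and 36.6 ± 4.59 in KOL, had normalized counts of 840, 821 and 766 in WT, 542, 520 and 555 in WTL, 764, 737 and 796 in KO and 609, 743 and 592 in KOL.

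WTL libraries of Tk1 lay below all others, and KO overlapped WT. The rise of Tk1 in KOL against WTL, 0.26 ± 0.09, missed the threshold without WTL replicate 2, at 0.24, and without KOL replicate 2, at 0.15. Its fall in KOL against KO, −0.24 ± 0.08, missed it without KO replicate 3 or KOL replicate 1 or 3, at −0.22, −0.20 and −0.18. Tk1 shares positions with Afmid and Gm20708 on the other strand. Rrm1 fell in KO against WT and in KOL against WTL, at −0.60 ± 0.08 and −1.05 ± 0.08.

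Dut passed the threshold in no comparison with TMM scaling on all 12 libraries, at −0.39 ± 0.17 in KO against WT and −0.41 ± 0.18 in WTL against WT. These 2 differences passed it with total counts alone, at −0.49 and −0.92, with limma on log2(TPM + 1), at −0.79 and −0.87, with no filter on low counts, at −0.39 and −0.43, and without WT replicate 3, at −0.54 and −0.61. The first also passed without WTL replicate 1, at −0.39, and the second without WTL replicate 3 or KOL replicate 1 or 2, at −0.60 to −0.41, and with at least 10 counts in every library, at −0.42. KOL against KO, at −0.17, passed with total counts alone, at −0.54. Its effective length, the mean number of start positions a fragment can take on its transcripts, was 1216, 1026 and 1080 bases in KO and 819 to 856 bases in the 9 other libraries. Dut was singled out after its values were seen. The TPM of Dut depends on this length.

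Chromatin duplication includes Uhrf1, which recognises half-methylated DNA, Dnmt1, which completes the methylation, the histone chaperone subunits Chaf1a and Chaf1b, and Slbp, which binds histone messages. In WTL against WT all 5 fell, beside 30.2% of all genes. In KO against WT 4 fell and none rose, beside 22.4% and 22.2%. Uhrf1 had the largest change in KO, −0.56 ± 0.08. Its normalized counts were 754, 779 and 814 in WT, 349, 421 and 394 in WTL, 495, 531 and 567 in KO and 226, 225 and 203 in KOL, without overlap in any comparison.

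Dnmt1 had the largest LPS change of the role, −1.42 ± 0.10 in WT cells and −1.71 ± 0.11 in KO cells. It had normalized counts of 1515, 1666 and 1690 in WT, 637, 599 and 586 in WTL, 1280, 1250 and 1327 in KO and 401, 463 and 319 in KOL. WTL and KOL libraries lay below those without LPS, and KO lay below WT. The difference of KO and WT, −0.34 ± 0.10, was −0.32 and missed the threshold without KO replicate 2. Slbp, the most abundant of the role with a mean TPM ± SD of 64.1 ± 4.07 in WT, 30.5 ± 2.91 in WTL, 48.5 ± 2.58 in KO and 26.4 ± 4.22 in KOL, had normalized counts of 884, 833 and 771 in WT, 595, 598 and 694 in WTL, 589, 630 and 666 in KO and 602, 460 and 653 in KOL. WT libraries were the highest, and the other 3 groups overlapped. For Slbp KOL against KO, at −0.13 ± 0.11, missed the threshold. It was a fall past the threshold with total counts alone, at −0.51, and with limma on log2(TPM + 1), at −0.86. Chaf1a fell in KO against WT, at −0.50 ± 0.08, a value that missed the threshold with limma at −0.50, while Chaf1b gave −0.13 ± 0.09, short of the threshold. With total counts alone the value of Chaf1b passed, at −0.23. The fall of Chaf1b in WTL against WT, −0.27 ± 0.09, missed the threshold with DESeq2, at −0.27, and without WTL replicate 1, at −0.20.

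Repair and fork protection held the largest falls of any role in KO against WT, WTL against WT and KOL against KO. Rad51ap1 aids strand exchange, Brca1 and Brca2 act in recombination, Exo1 resects ends, Blm is a helicase, and Clspn and Tipin signal from stalled forks. In WTL against WT all 7 fell, and in KO against WT 6 fell, beside 30.2% and 22.4% of all genes. Rad51ap1 had normalized counts of 324, 278 and 302 in WT, 218, 177 and 182 in WTL, 141, 109 and 126 in KO and 80.7, 71.4 and 63 in KOL. Each group lay apart from the others, in the order WT, WTL, KO and KOL, and the difference in KO against WT was −1.26 ± 0.12.

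Clspn had normalized counts of 459, 443 and 459 in WT, 179, 138 and 140 in WTL, 292, 329 and 301 in KO and 59.1, 80.7 and 57.7 in KOL. The groups did not overlap, with WT highest, then KO, then WTL, then KOL. With LPS it fell, at −1.58 ± 0.11 in WT cells and −2.23 ± 0.13 in KO cells, the largest fall of any member in either LPS comparison. Its fall in KO against WT, −0.56 ± 0.10, was −0.30 and missed the threshold with limma on log2(TPM + 1). Tipin, the most abundant of the role at 25.5 TPM averaged over all libraries, had normalized counts of 264, 219 and 245 in WT, 187, 188 and 163 in WTL, 180, 182 and 166 in KO and 97.9, 118 and 147 in KOL, highest in WT and lowest in KOL.

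Brca1 fell in KO against WT, at −1.05 ± 0.08, and KOL against KO gave 0.00 ± 0.09. The latter was a fall past the threshold with total counts alone, at −0.37, and with limma on log2(TPM + 1), at −0.45. Brca2 gave −0.34 ± 0.14 in KO against WT, short of the threshold, and −1.52 ± 0.16 in WTL against WT. The former passed the threshold with total counts alone and without WT replicate 2, at −0.44 each. It also passed without WTL replicate 1 or KOL replicate 2, at −0.34 each. Exo1 and Blm fell in WTL against WT, at −1.21 ± 0.22 and −0.80 ± 0.15. Blm also fell in KO against WT, at −0.54, and in KOL against WTL, at −0.78, and with limma on log2(TPM + 1) both missed the threshold, at −0.59 and −0.30. Exo1 gave −0.63 ± 0.20 in KO against WT, a fall that was lost without WT replicate 2 or KO replicate 1 or 3, at −0.58 to −0.53. Exo1 rested on few counts, 7.47 to 88.1 normalized counts over the 12 libraries.

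**Figure D2:**
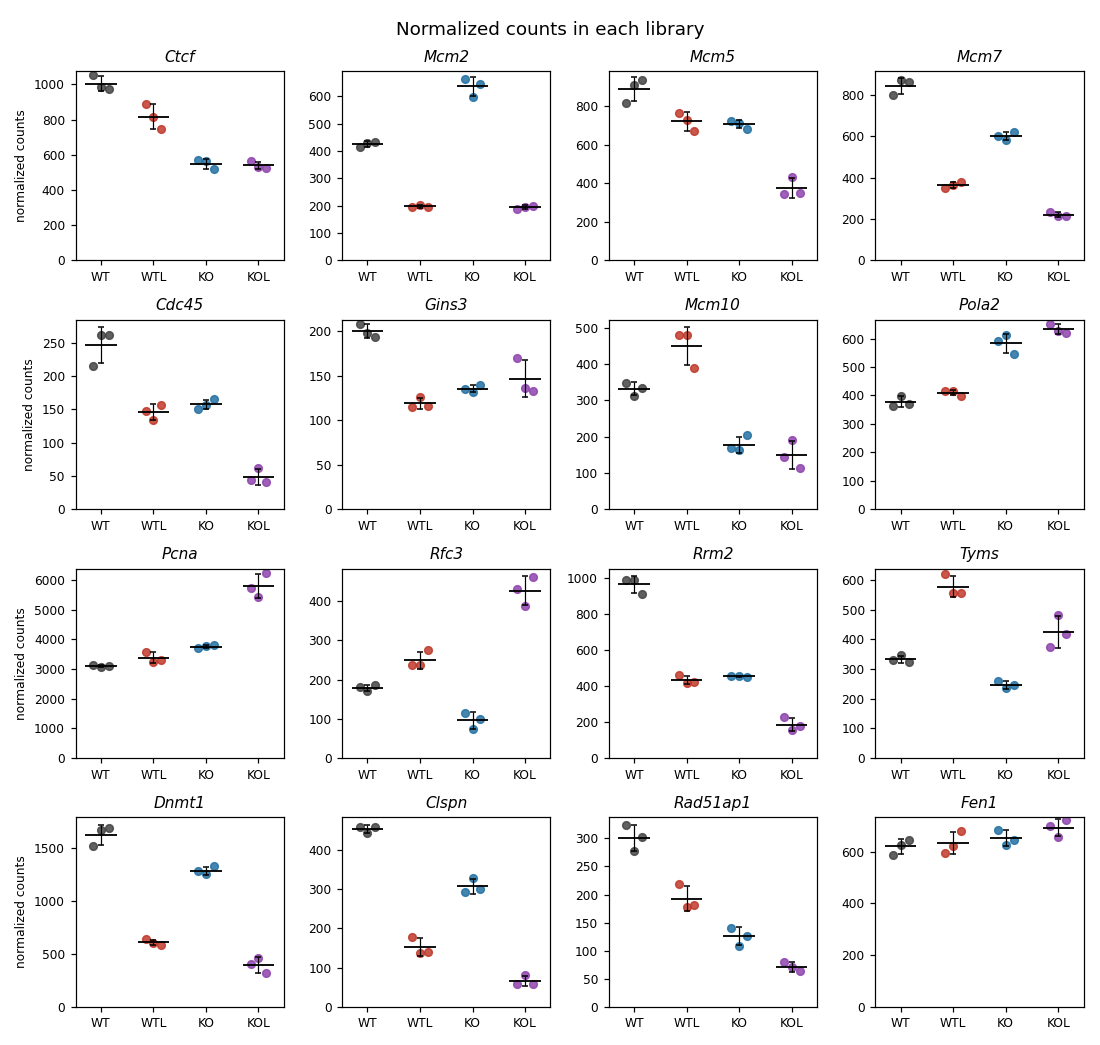
Normalized counts (vertical axis) of Ctcf and 15 members in each of 3 libraries per group, with the group mean as a line and the SD as a bar. Mcm2 is highest in KO at 599 to 664, Rfc3 and Pcna are highest in KOL at 388 to 462 and 5442 to 6236, and Cdc45 is lowest in KOL at 40.6 to 62.0.

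Whether the LPS response depended on genotype was tested as an interaction, the LPS change in KO cells minus that in WT cells. It passed the threshold for 13 of 50 members: 9 were lower (18%), beside 8.75% of all genes tested, and 4 were higher (8.0%), near the 8.70% of all genes. The members' median was −0.10, beside −0.02 for all genes. With total counts alone 3 were lower and 6 higher, beside 4.94% and 13.3% of all genes, and with limma on log2(TPM + 1) 2 were lower and 5 higher, beside 4.49% and 7.06%, so the split of all genes moved as well. The count of lower members was 3 without WT replicate 1 or 3, 4 without WT replicate 2 and 5 without WTL replicate 2, and the count of higher members was 7 without KOL replicate 2.

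Rfc3 had the largest interaction, 1.67 ± 0.18, followed by Gins3 at 0.86 ± 0.15 and Pcna at 0.51 ± 0.10 among the higher members (adjusted p = 3.7e-05, 0.0016 and 0.0024, quasi-likelihood test of edgeR, Benjamini-Hochberg adjusted). Brca1 was the other higher one, at 0.51 ± 0.12. Of the lower ones, Cdc45 was lowest at −0.95 ± 0.20, and Mcm5 and Mcm2, with smaller SE, were at −0.62 ± 0.13 and −0.60 ± 0.10. Mcm10, Clspn, Pola1, Rrm1, Mcm4 and Lig1 were at −0.70, −0.64, −0.54, −0.46, −0.42 and −0.36.

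Some of these calls were lost when a library was left out. The value of Mcm10 ranged from −0.74 to −0.53 in the fits that missed the threshold, those without any WT replicate, WTL replicate 1 or 2, KO replicate 1 or 3, or KOL replicate 1 or 3. For Clspn it ranged from −0.59 to −0.55 in those without any WT replicate, KO replicate 2 or KOL replicate 1 or 3. For Lig1 it ranged from −0.35 to −0.28 in those without any WT replicate, WTL replicate 2 or KO replicate 1.

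Mcm4 missed it without any WT replicate, WTL replicate 2, KO replicate 1 or 3 or KOL replicate 3, at −0.43 to −0.32, and Pola1 without any WT replicate, WTL replicate 1 or 2, KO replicate 2 or 3 or KOL replicate 1, at −0.55 to −0.43, and also with DESeq2, at −0.53. With DESeq2 Lig1 missed it too, at −0.35. Rrm1 missed it without WT replicate 1 or 3, at −0.39 and −0.37. With total counts alone Mcm10, Clspn, Lig1, Mcm4, Pola1 and Rrm1 all missed the threshold, at −0.56, −0.51, −0.23, −0.28, −0.41 and −0.32. With limma on log2(TPM + 1) these 6 missed it too, as did Mcm5 at −0.48, Cdc45 at −0.56 and Brca1 at 0.46.

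Summed over the 50 members, levels were 1332 ± 46.0 TPM (SD, n = 3) in WT, 755 ± 34.9 in WTL, 1047 ± 5.44 in KO and 750 ± 42.2 in KOL. TPM is a share of the whole library, so these sums carry the shift of scaling given above. Repair and fork protection summed to 104 ± 6.15 TPM in WT and 25.6 ± 3.72 in KOL. For the clamp and its loader the sum was 331 ± 9.51 in WT and 363 ± 30.1 in KOL, of which Pcna made up most.

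Other genes of the cycle were described with 5 further lists. Among all genes tested, 22.2% rose and 22.4% fell in KO against WT, and 30.0% and 30.2% in WTL against WT. For KOL against WTL these shares were 21.4% and 23.3%, for KOL against KO 33.6% and 33.9%, and for the interaction 8.70% and 8.75%. Of 31 other replication factors, 14 fell and 4 rose in KO against WT, with a median of −0.27. Wdhd1, a scaffold at the fork, had the largest rise, with normalized counts of 481, 418 and 416 in WT, 210, 192 and 169 in WTL, 931, 934 and 942 in KO and 319, 369 and 356 in KOL. All KO libraries lay above all WT libraries, a difference of 1.09 ± 0.08. Atad5, which unloads the clamp, had the largest fall, −0.98 ± 0.11.

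With LPS, 18 of these 31 fell and 3 rose in WT cells, and 19 fell and 5 rose in KO cells. Of the latter 5, Mcm9 turned from 0.33 to −0.04 with total counts alone and Orc4 from 0.39 to −0.07 with limma. Timeless, partner of Tipin, had the largest rise in both, 1.27 ± 0.07 and 1.66 ± 0.08, while the nuclease Dna2 had the largest fall in both. Dna2 had normalized counts of 734, 803 and 742 in WT, 200, 195 and 199 in WTL, 457, 462 and 429 in KO and 43, 26.9 and 45.9 in KOL. No groups overlapped, and KOL was the lowest. Its changes were −1.94 ± 0.10 in WTL against WT, −3.53 ± 0.12 in KOL against KO and −1.58 ± 0.17 in the interaction, the largest fall of the list there. The interaction gave 2 higher and 3 lower calls, with Donson highest at 0.61 ± 0.18, a call lost without WT replicate 3, WTL replicate 2, KO replicate 2 or 3 or KOL replicate 3, at 0.51 to 0.62, and with limma, at 0.91. Ticrr, 1 of the lower ones, turned from −0.86 to 0.12 with limma. In KOL against WTL 17 fell and 4 rose, with Pole4 highest at 0.90 ± 0.13 and Dna2 lowest at −2.34 ± 0.14.

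Of 27 other genes of nucleotide synthesis, 8 rose and 7 fell in KO against WT (29.6% and 25.9%), near the 22.2% and 22.4% of all genes. Those calls were led by Gart at 0.56 ± 0.07 and Mthfd2 at −1.11 ± 0.09. In WTL against WT 4 rose and 14 fell, with Samhd1, which breaks down dNTPs, at 1.64 ± 0.06 and Ctps at −1.36 ± 0.19. KOL against KO gave 7 rises and 17 falls, with Dck at 1.87 ± 0.08 and Mthfd1l at −1.33 ± 0.11. KOL against WTL gave 3 and 8, with Impdh1 at 1.00 ± 0.12 and Rrm2b at −0.77 ± 0.16. The interaction gave 5 and 7, and the same 2 genes led it, at 1.21 ± 0.17 and −0.85 ± 0.22, the latter lost without WT replicate 2, at −0.71, and with limma, at −0.60. The call on Nme2, which rose with LPS in both genotypes, turned to −0.26 in WT cells and −0.08 in KO cells with total counts alone. With limma 3 of the 7 rises in KOL against KO turned, those of Nme1 to −0.41, Gmps to −0.03 and Nme2 to −0.15.

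In the E2F and RB family, 4 of 13 fell and none rose in KO against WT, led by E2f7 at −0.98 ± 0.15. With LPS 8 fell and 4 rose in WT cells, and 9 fell and 3 rose in KO cells. E2f2 had the largest falls, −2.48 ± 0.09 and −3.00 ± 0.10, and E2f5 the largest rises, 1.43 ± 0.16 and 1.73 ± 0.16. In KOL against WTL 5 fell and none rose, led by E2f8 at −1.37 ± 0.09, which was also the lowest of 3 falls in the interaction, at −0.58 ± 0.12, and which missed the threshold there with limma, at −0.42. E2f2, lower in the interaction, gave 0.02 with limma. The rises of E2f3 and E2f8 in WTL against WT turned to −0.27 and −0.21 with total counts alone, as that of E2f3 did in KOL against KO, to −0.15.

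Of 18 checkpoint genes, 11 fell and none rose in KO against WT, with Fanci lowest at −1.0 ± 0.16. In WTL against WT 11 fell and 3 rose, with Chek2 at −2.10 ± 0.15 and Atrip at 1.15 ± 0.11, while Rad18, which rose there, turned to −0.20 with total counts alone. KOL against KO gave 8 falls and 2 rises, with the same 2 genes at −2.36 ± 0.16 and 0.98 ± 0.12, the latter 0.09 and short of the threshold with limma, with which the other rise, of Etaa1, turned from 0.43 to −0.02. KOL against WTL gave 12 falls and 2 rises, with Bard1 at −1.98 ± 0.19 and the kinase Wee1 at 1.29 ± 0.15. In the interaction, Bard1 was at −1.06 ± 0.25 and Wee1 at 1.55 ± 0.20, the ends of a list with 2 calls each way, and Bard1 was −0.14 and short of the threshold with limma.

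Of the 20 genes of G2 and mitosis, all 20 fell in KO against WT, with a median of −0.80 and Bub1 lowest at −1.12 ± 0.13. In WTL against WT 18 fell, with Cenpf lowest at −1.73 ± 0.19. KOL against KO gave 17 falls, with Cenpf at −2.65 ± 0.21, and KOL against WTL gave 18, with Cenpe at −1.67 ± 0.18. None rose in any of the 4. The interaction gave 8 lower calls, led by Cenpe at −1.0 ± 0.24, and 1 higher, Birc5 at 0.67 ± 0.12.

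Genes next to the members that rose after loss of CTCF were examined after those values were seen. Mcm2 lies on chromosome 6 from 88883474 to 88898780 (mm10, minus strand), between Podxl2 and Tpra1. Tpra1 lies 3471 bases away and gave 1.15 ± 0.16 in KO against WT, and Podxl2, at 8430 bases, gave 4.68 ± 0.64. Pcna lies on chromosome 2 from 132249162 to 132253314, and its neighbours Tmem230 and Cds2, at 1355 and 9834 bases, gave 0.53 ± 0.11 and 0.91 ± 0.07. All 4 of these neighbours rose, beside 22.2% of all genes tested. The neighbours of the other members, given next, rose, fell or missed the threshold. Whether position plays a part was not tested.

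Pola2 lies on chromosome 19 from 5940542 to 5964202. Of its neighbours, Capn1, at 24343 bases, gave 0.55 ± 0.08 and Cdc42ep2, at 15726 bases, −0.91 ± 0.07 in KO against WT. Rfc3 lies on chromosome 5 from 151642756 to 151651242, and the nearest tested neighbour at lower coordinates, Pds5b, 832066 bases away, gave −0.25 ± 0.12 in KOL against WTL, short of the threshold. Gins3 lies on chromosome 8 from 95633453 to 95645060, and its neighbours Ndrg4, at 31920 bases, and Csnk2a2, at 143414 bases, gave −0.70 ± 0.10 and −0.70 ± 0.08 in KO against WT. In KOL against WTL Ndrg4 rose, at 0.44 ± 0.11, and Csnk2a2 fell, at −0.49 ± 0.08. Syngr2 and Birc5, at 1243 and 23159 bases from Tk1, gave 0.10 ± 0.13 and 0.07 ± 0.08 in KOL against WTL, both short of the threshold. In KO against WT both fell, at −0.49 ± 0.13 and −0.61 ± 0.08.

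Overlap with another gene limits some members. A protein-coding gene on the other strand overlaps 11 members, and 2 overlap one on the same strand. Among them, Rfc4 lies over Eif4a2, Cdc45 over Ufd1, Lig1 over Zswim9 and Mcm7 over Cops6 and Ap4m1. Mean normalized counts of Ap4m1 were 533 in WT, 232 in WTL, 519 in KO and 182 in KOL, lower with LPS like those of Mcm7. Those of Cops6 were 607, 733, 587 and 711 in the same order. The study's methods name a kit that keeps strand, but the strand setting used in counting is not given in the sources used here, so reads of such pairs may not be told apart. Expected counts were fractional in all 12 libraries for 7 members: Mcm7, Gins2, Pcna, Rfc2, Rfc5, Fen1 and Chaf1a.

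Promoters of the members were read because most members moved together. RefSeq windows of build GRCm38.p6, from 250 bases before to 50 after the start, were at hand for 41 members, and the 9 others are Mcm4, Gins4, Pole, Rfc2, Gins2, Exo1, Gins1, Tipin and Prim2. The words TTTCCCGC, TTTCGCGC, TTTGCCGC and TTTGGCGC, which fit the known E2F motif and can overlap each other, were searched on both strands. At least 1 was found for 17 of 41 members (41.5%), beside 704 of 27025 symbols (2.60%) and 2.26% of all 32851 windows. CCAAT was found for 27 members (65.9%), beside 41.1% of symbols and 37.4% of windows, and TTTGAA for 6 (14.6%), beside 20.2% and 17.9%.

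Mcm2, Pola2 and Pcna, which rose in KO, held none of the 4 words in their windows, nor did Cdc45, Rrm2, Rad51ap1 and Brca1, which fell. Rfc3, Cdt1 and Mcm5 held at least 1. These are matches of letters in a window and not sites. The stretches below show, 5′ to 3′ on the gene's strand with the word or its reverse complement in capitals, the surroundings in members described above.
Mcm5, chr8:75109346-75109373, plus strand: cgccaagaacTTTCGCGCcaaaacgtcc
Mcm6, chr1:128359735-128359762, minus strand: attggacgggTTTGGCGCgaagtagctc
Mcm7, chr5:138172031-138172058, minus strand: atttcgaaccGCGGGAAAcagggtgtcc
Gins3, chr8:95633508-95633535, plus strand: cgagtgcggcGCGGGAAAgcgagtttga
Pola1, chrX:93632276-93632303, minus strand: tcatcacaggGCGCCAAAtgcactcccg
Dnmt1, chr9:20952825-20952852, minus strand: gtttccgcgcGCGCGAAAaagccggggt
In Mcm5 the word TTTCGCGC and, on the other strand, TTTGGCGC overlap.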

How the data were processed

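RNA of 12 mouse BMDC libraries was sequenced. The authors aligned reads to mm10 with STAR, given as version 2.5.1 in the submitters' processing notes, and deposited RSEM expected counts, effective lengths and TPM per gene. Labels and methods differ on how RNA was selected (ribosomal depletion or a stranded poly(A) kit), and the strand setting of RSEM is not given in the sources used here. Library totals were 12769773 to 16586334 expected counts, which limits precision for genes of few counts.

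Expected counts were rounded and tested with edgeR 4.0.16 in R 4.3.3 (TMM, filterByExpr, 1 fit of 12 libraries with a mean per group, quasi-likelihood test, Benjamini-Hochberg over 14008 genes, called at adjusted p under 0.05). Alternatives were DESeq2 1.42.0, other scalings, filters and sample sets, the fold cutoffs of 1.3, 1.5 and 2, a replicate block and limma 3.58.1 on log2 TPM with 1 or 0.1 added, where 3 libraries reached a TPM of 1. Members and lists were chosen with earlier results of these data known. All 50 members may be named. Values in every library are given for Ctcf, for the member of each role with the highest mean TPM and those with the largest change in KO against WT and in WTL against WT, for members against the direction of most of their role, and for the 5 with the smallest interaction p. In each further list the largest rise and fall past the threshold per comparison are named. Gene positions are from GENCODE M21, in which all 50 identifiers were found, and promoters from RefSeq. The fits were tested on simulated counts for direction, bias and false calls. A minimum share of recovered genes was at first also required, was missed by limma in the interaction, and was then dropped, so limma's interaction calls are the least sensitive.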

Additional observations from a re-analysis of the deposited data

Results flagged for a closer look

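The LPS response differed between genotypes, by the interaction test of edgeR, for 13 members. It was higher in KO cells for Rfc3 by 1.67, Gins3 by 0.86, Pcna by 0.51 and Brca1 by 0.51 on the log2 scale. It was lower for Cdc45 (−0.95), Mcm10 (−0.70), Clspn (−0.64), Mcm5 (−0.62), Mcm2 (−0.60), Pola1 (−0.54), Rrm1 (−0.46), Mcm4 (−0.42) and Lig1 (−0.36). Calls on Mcm10, Clspn, Lig1, Mcm4, Pola1 and Rrm1 were lost when some single libraries were left out and, like those on Mcm5, Cdc45 and Brca1, with limma on log2(TPM + 1). With total counts alone 3 members were lower and 6 higher, beside 4.94% and 13.3% of all genes. The 4 higher members (8.0%) are near the share of all genes, 8.70%.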

How the results depend on the processing

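Of the counts of members called, 150 lay within 1.5 times of the reported count and 18 did not. Among values of Ctcf and the 28 members given per library, 2108 kept direction and side of the threshold, 80 lost and 43 gained the call, and 89 changed sign. Causes were not tested unless stated.

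With the study's fold cutoffs, which by construction remove small changes, 0 members rose and 10 fell in WTL against WT and 3 rose in KOL against WTL. With the cutoff for WTL against WT applied also to KOL against KO, for which the study names none, 1 rose and 15 fell. With total counts alone 1 member rose in WTL against WT and 3 were lower in the interaction. With limma 1 member rose in WTL against WT on either scale, and 2 (TPM + 1) or 3 (TPM + 0.1) were lower in the interaction. On the 6 libraries alone 3 rose in KOL against WTL. Without 1 library, 3 to 5 members rose in KOL against WTL, and 4 to 7 were higher and 3 to 12 lower in the interaction.

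These calls were also lost. With no filter on low counts they were Mcm3, −0.19, Gins3, 0.31, and Gins4, −0.29, in KOL against WTL, Gins4, −0.24, in WTL against WT, and Lig1, −0.35, Mcm4, −0.40, and Donson, 0.62, in the interaction. On the 6 libraries alone they were Cdt1, −0.47, Mcm3, −0.17, Gins3, 0.33, and Tk1, 0.30, in KOL against WTL. With DESeq2's size factors in edgeR the Pola1 interaction, −0.53, was lost, and with at least 10 counts in every library Rfc5 in KO against WT, −0.33.

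Of the 89 changes of sign, 37 came from leaving out 1 library, 17 from total counts alone and 15 and 12 from limma on log2(TPM + 1) and log2(TPM + 0.1), which changes unit and model together. With total counts alone, WTL against WT became −0.38 for Gins2, −0.08 for Mcm10, −0.39 for Pola2, −0.39 for Pcna, −0.03 for Rfc3 and −0.48 for Fen1, and KOL against KO −0.26 for Gins3, −0.25 for Pola2 and −0.28 for Fen1. Fen1 in KO against WT became −0.03 and Mcm2 in KOL against WTL 0.01. Interactions became 0.05 for Mcm3, 0.13 for Prim2, 0.12 for Rfc4, 0.00 for Rrm2, 0.12 for Tyms and 0.03 for Tipin. With limma on log2(TPM + 1) and log2(TPM + 0.1), WTL against WT became −0.11 and −0.11 for Gins2, −0.43 and −0.46 for Pola2, −0.41 and −0.41 for Pcna, and −0.49 and −0.50 for Fen1. KOL against KO became −0.39 and −0.46 for Gins3, −0.31 and −0.32 for Pola2, and −0.35 and −0.36 for Fen1, and Fen1 in KO against WT −0.03 in both. Interactions became 0.14 and 0.14 for Mcm3, 0.14 and 0.06 for Prim2, 0.11 and 0.09 for Rfc4 and 0.29 and 0.30 for Tyms, and with TPM + 1 also 0.06 for Gins1, 0.03 for Rrm2 and 0.06 for Rad51ap1. With DESeq2, its size factors in edgeR, or no filter, the interaction became 0.01 for Prim2 and 0.00 for Tyms, and with at least 10 counts in every library 0.00 for Prim2. On the 6 libraries alone Mcm2 in KOL against WTL was 0.01.

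Leaving out 1 library changed the sign of these uncalled values, with ranges of −0.21 to 0.05 (Cdt1), −0.14 to 0.09 (Gins2) and −0.01 to 0.18 (Gins3) in KOL against KO, −0.04 to 0.01 for Mcm2 in KOL against WTL, and −0.00 to 0.10 in KO against WT and −0.08 to 0.07 in WTL against WT for Fen1. For the interaction they were −0.13 to 0.02 (Mcm3), −0.04 to 0.10 (Pola2), −0.18 to 0.13 (Prim2), −0.11 to 0.17 (Rfc4), −0.11 to 0.08 (Tyms) and −0.27 to 0.04 (Tipin).

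Replicate numbers gave correlations of −0.286 to 0.112 between deviations of same-numbered libraries, so they share only a number. With the replicate block 35 members fell and 3 rose in KO against WT, 36 fell in WTL against WT, 30 fell and 4 rose in KOL against WTL, 32 fell in KOL against KO, and 7 were lower in the interaction, and the calls on Mcm3 and Gins3 in KOL against WTL, Gins4 and Rpa2 in WTL against WT, Rfc5 in KO against WT, and Mcm10 and Pola1 in the interaction were lost.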
